A study of Mus musculus with 60 samples.

Results

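The aryl hydrocarbon receptor Ahr, its partner Arnt, its repressor Ahrr and their target genes Cyp1a1, Cyp1a2, Cyp1b1 and Tiparp were followed in the brains of mouse fetuses with 60 Affymetrix arrays of the type Mouse Gene 1.0 ST. These 7 genes were taken by symbol from the 19938 genes that the table names, and each had exactly 1 row with that symbol alone. Pregnant mice on a B6.129 background were given CPO (chlorpyrifos oxon), the metabolite through which the insecticide chlorpyrifos inhibits acetylcholinesterase, on gestational days 6 to 17, and fetal brains were collected on day 18. RNA from the fetal brains of a dam was pooled on 1 array, so the dam was the replicate. Dams with outlying brain acetylcholinesterase activity were set aside before the draw, per the series description. The labels give 4 genotypes and 12 groups of 5 arrays. Pon1-knockout mice (KO), which lack the CPO-hydrolysing enzyme paraoxonase 1, received 0.00, 0.50 or 0.75 mg/kg/d. Mice with the human transgene tgHuPON1Q192 (Q-tg), mice with the human transgene tgHuPON1R192 (R-tg) and wild-type mice (WT) received 0.00, 0.75 or 0.85 mg/kg/d. The promoter of the transgenes and the state of the mouse Pon1 gene in the transgenic lines are not given in the sources used here.

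AHR is a transcription factor of the bHLH-PAS family that rests in the cytoplasm with chaperones and moves to the nucleus when it binds planar aromatic compounds such as dioxins. There it pairs with ARNT on xenobiotic response elements and turns on the Cyp1 monooxygenases, the ADP-ribosyltransferase Tiparp and its own repressor Ahrr. In brain, Cyp1 enzymes are known mainly from vessels and their supporting cells, and Cyp1a2 is best known from liver.

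Pon1, the check of the genotype labels, had a low signal on 15 arrays (at most 5.67) and a high one on 45 (at least 9.72). It was high on 5 of the 15 arrays labelled KO and low on 5 of the 45 others, and these 10 arrays are called against their label. The low ones were 1 array each in Q-tg 0.00, Q-tg 0.85, R-tg 0.75, WT 0.00 and WT 0.85. For the transgenic arrays the term assumes an intact mouse Pon1 gene, which the sources do not state. The high KO arrays were in KO 0.00 (2 arrays) and KO 0.75 (3 arrays). The KO values of the members that stand out are therefore given with and without such arrays. Groups are named by their labels throughout. Any 2 arrays correlated at 0.9865 to 0.9984, and no 2 were identical. The labels and files name no processing batch, so none could be examined. Neuron markers (8 of 8) and neural progenitor markers (6 of 6) were above background, as were 10 of 10 endothelial, 7 of 7 mural and 8 of 8 meningeal markers.

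The letters of the element that AHR and ARNT bind, GCGTG, were searched on both strands of the RefSeq promoter windows (assembly GRCm38.p6, 250 bases before to 50 after the start). These letters overlap those of the hypoxia response element. They occur in 32.4% of all 32851 windows, and the longer form TNGCGTG occurs in 5.1%. Windows were found for 6 of the 7 genes, 5 of them with GCGTG and 1 (Ahrr) with the longer form. The GC content was 60.3% for Ahrr, 54.0% for Cyp1a1, 49.7% for Cyp1a2, 58.3% for Cyp1b1, 59.3% for Arnt and 73.7% for Tiparp. Its median over all windows was 52.7%, and the matches were not adjusted for it. The windows below are shown because they show how unevenly these letters fall among the targets. Capitals mark GCGTG, or its reverse complement CACGC. The Ahrr window has 3 matches, as have 3 or more in 3.9% of windows. Cyp1a1 and Cyp1b1 have 1 match each, and in Cyp1b1 it lies on the other strand. Cyp1a2 has none in these letters. The start sites of the Cyp1a1 and Cyp1a2 windows lie 13958 bases apart and point away from each other. The annotated range of Cyp1a1 begins upstream of its window, at chr9:57687928, so that window does not lie at the outer end of the gene.
Ahrr (chr13:74292282-74292581, minus strand): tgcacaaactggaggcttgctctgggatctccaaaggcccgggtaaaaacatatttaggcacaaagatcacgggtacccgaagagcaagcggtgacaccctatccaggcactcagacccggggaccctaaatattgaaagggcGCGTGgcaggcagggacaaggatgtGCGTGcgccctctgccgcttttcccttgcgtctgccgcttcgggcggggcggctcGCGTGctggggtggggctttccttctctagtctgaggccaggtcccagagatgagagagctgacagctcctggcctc
Cyp1a1 (chr9:57697363-57697662, plus strand): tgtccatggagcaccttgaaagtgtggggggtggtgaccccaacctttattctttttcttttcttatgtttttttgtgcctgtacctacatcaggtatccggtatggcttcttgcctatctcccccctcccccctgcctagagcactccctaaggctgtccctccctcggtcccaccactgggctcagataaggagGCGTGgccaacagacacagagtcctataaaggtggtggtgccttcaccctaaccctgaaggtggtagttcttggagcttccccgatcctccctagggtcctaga
Cyp1a2 (chr9:57683606-57683905, minus strand): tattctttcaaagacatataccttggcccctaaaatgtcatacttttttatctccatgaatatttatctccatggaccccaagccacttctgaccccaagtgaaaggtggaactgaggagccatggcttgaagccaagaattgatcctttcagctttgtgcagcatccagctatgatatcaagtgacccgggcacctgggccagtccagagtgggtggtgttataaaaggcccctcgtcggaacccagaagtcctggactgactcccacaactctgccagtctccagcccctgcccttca
Cyp1b1 (chr17:79715012-79715311, minus strand): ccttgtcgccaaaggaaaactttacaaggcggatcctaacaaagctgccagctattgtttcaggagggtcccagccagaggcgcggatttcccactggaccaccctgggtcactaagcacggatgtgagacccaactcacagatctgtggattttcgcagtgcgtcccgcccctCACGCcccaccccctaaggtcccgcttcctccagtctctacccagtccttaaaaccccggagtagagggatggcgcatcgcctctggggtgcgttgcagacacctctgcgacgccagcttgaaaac
The Arnt and Tiparp windows hold 1 match each. The arrays measured RNA and not binding, and a match describes the letters only.

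Ahr, Arnt, Cyp1b1 and Tiparp gave signals above the olfactory receptor background, and Ahrr, Cyp1a1 and Cyp1a2 did not. Olfactory receptor genes are known for expression in nasal sensory neurons, and their 1035 rows served as a yardstick of rows with little specific signal. Their means over the 60 arrays had a median of 4.97 and a 95th percentile of 6.54 (log2 signal). Of all 21789 rows with 1 symbol, 71.6% lay above that percentile. A row's signal also depends on its probes, so each gene is placed against this background and not against another gene.

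Ahr, the ligand-binding receptor, ranged from 7.96 to 8.42 with a median of 8.17 (mean 8.16 ± 0.09, SD, n = 60). Arnt, the partner that AHR shares with other bHLH-PAS factors, ranged from 9.03 to 9.38 with a median of 9.19 (mean 9.19 ± 0.07, SD, n = 60). Both exceeded the array's own 95th percentile on 60 of 60 arrays. A higher mean was found for 2 olfactory receptor rows in the case of Ahr and for 1 in the case of Arnt.

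Ahrr, the repressor that competes with AHR for ARNT, ranged from 5.58 to 6.15 with a median of 5.91 (mean 5.88 ± 0.14, SD, n = 60). It passed the array's own 95th percentile on 0 of 60 arrays and its 90th on 1, and 19.23% of olfactory receptor rows had a higher mean. Its signal therefore gives no level beyond that of rows such as these.

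Cyp1a1, a widely used readout of AHR activity, ranged from 5.55 to 6.22 with a median of 5.88 (mean 5.88 ± 0.15, SD, n = 60). Cyp1a2, its neighbour and an oxidase of caffeine and aromatic amines, ranged from 4.93 to 5.72 with a median of 5.42 (mean 5.40 ± 0.17, SD, n = 60). Neither exceeded the array's own 95th percentile on any of the 60 arrays, and 19.42% and 34.4% of olfactory receptor rows had a higher mean than Cyp1a1 and Cyp1a2. Cyp1b1, which oxidises oestradiol and retinoids, was the member of the family above background. It ranged from 7.08 to 7.52 with a median of 7.31 (mean 7.30 ± 0.10, SD, n = 60), above the array's own 95th percentile on 60 of 60 arrays and above its 99th on 33. A higher mean was found for 10 olfactory receptor rows, which is 0.97%.

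Tiparp, an ADP-ribosyltransferase that dampens AHR signalling, ranged from 8.30 to 8.77 with a median of 8.55 (mean 8.54 ± 0.09, SD, n = 60) and was above the 95th percentile on 60 of 60 arrays. With the 90th or 99th percentile as the limit, the same 4 genes had a mean above it.

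**Figure D1:**
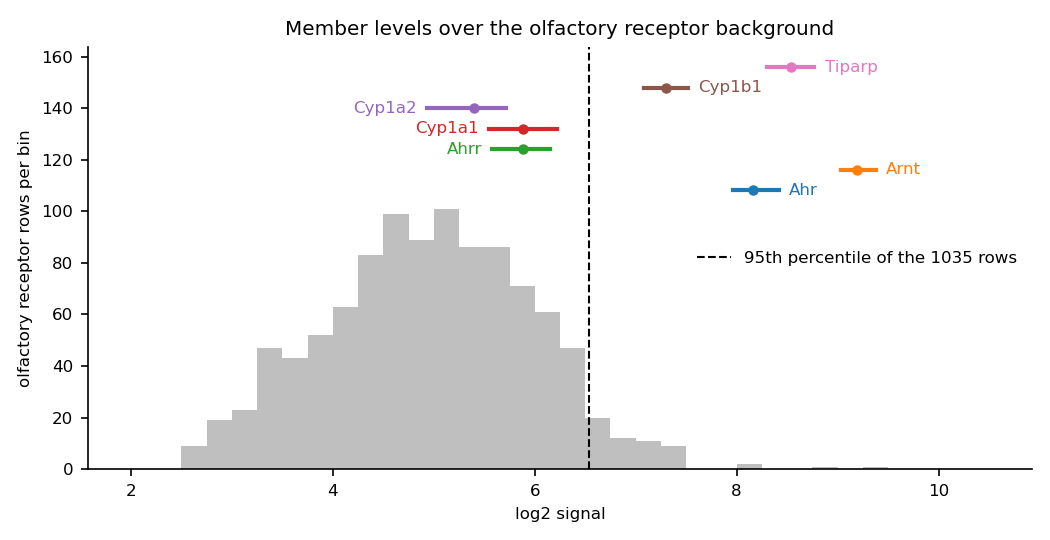
The 7 genes over the olfactory receptor background. Grey bars count olfactory receptor rows by mean log2 signal, the dashed line is their 95th percentile (6.54), and each coloured line runs from the lowest to the highest of the 60 arrays with a point at the mean. Ahrr, Cyp1a1 and Cyp1a2 lie wholly left of the dashed line, and their vertical placement has no meaning.

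Among the 12 groups, the group means of Ahr spanned 0.10 log2 units, against a pooled within-group SD of 0.09. The order ran from KO 0.00 (8.20 ± 0.13) to WT 0.75 (8.10 ± 0.07; SD, n = 5 each). Those of Arnt spanned 0.10 against 0.07, with WT 0.75 (9.25 ± 0.07) at the top and R-tg 0.85 (9.15 ± 0.10) at the bottom. For Ahrr the span was 0.21 against 0.13, with WT 0.85 (5.96 ± 0.19) at the top and WT 0.75 (5.75 ± 0.19) at the bottom. No neighbours in the order of these 3 genes lay further apart than the pooled within-group SD.

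The Cyp1a1 group means spanned 0.31 against a pooled SD of 0.14, from Q-tg 0.00 (5.97 ± 0.07) to WT 0.75 (5.66 ± 0.09). Its lowest group stood apart: the gap to the next, KO 0.75 (5.83 ± 0.13), was 0.174, and it was the only 1 of 11 gaps above the pooled SD. The Cyp1a2 means had the widest span of the 7 genes, 0.41 against 0.14. Its order began with KO 0.75 (5.60 ± 0.08) and Q-tg 0.00 (5.51 ± 0.13) and ended with WT 0.75 (5.28 ± 0.09) and KO 0.00 (5.19 ± 0.15). The Cyp1b1 means spanned 0.18 against 0.10, from KO 0.00 (7.37 ± 0.09) to KO 0.50 (7.19 ± 0.08). The Tiparp means spanned 0.18 against 0.09, from WT 0.75 (8.65 ± 0.09) to WT 0.85 (8.47 ± 0.13). For Cyp1a2, Cyp1b1 and Tiparp 0 of 11 gaps were above the pooled SD.

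**Figure D2:**
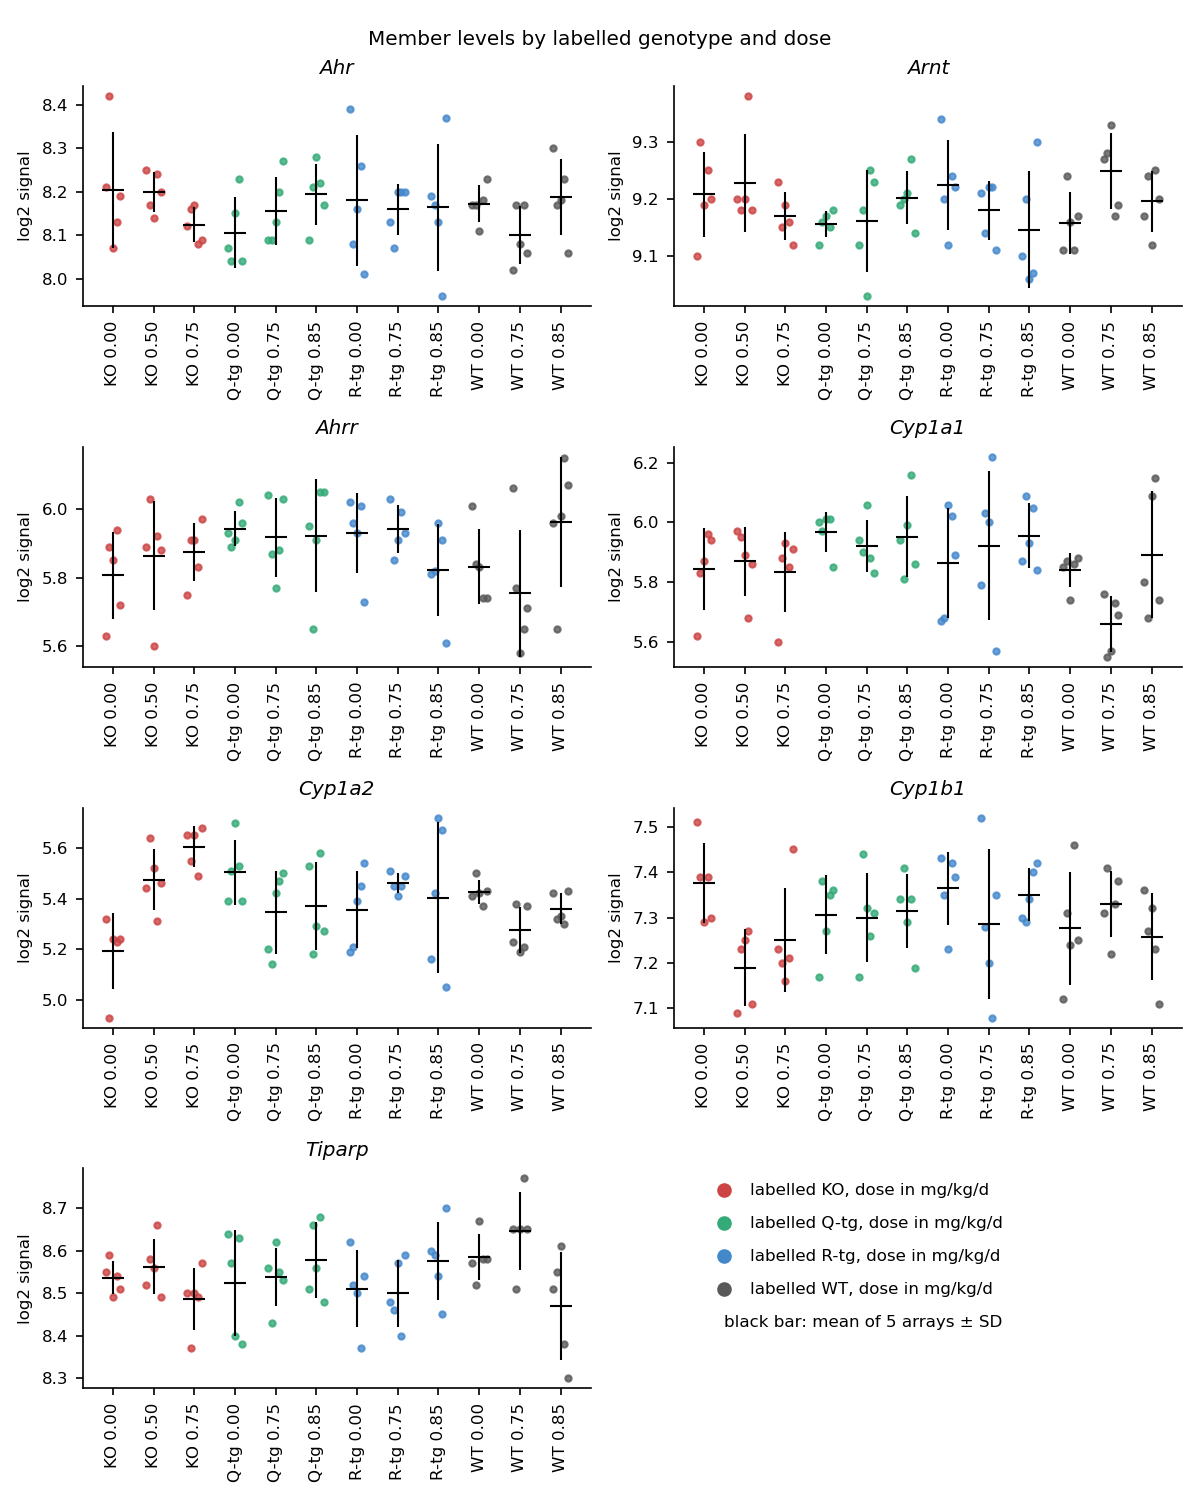
Log2 signal of the 7 genes on every array, by labelled genotype and CPO dose in mg/kg/d. Points are arrays (dams), coloured by labelled genotype, and black bars give the mean of 5 arrays ± SD. The vertical axes differ between panels and do not start at 0. In Cyp1a2 the KO means read 5.19, 5.47 and 5.60 at doses 0.00, 0.50 and 0.75.

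The first question of the design was whether CPO given to the dam moved these genes within a genotype. None of the 7 genes passed in any of the 8 comparisons of a dose with dose 0 (limma over 60 arrays, Benjamini-Hochberg adjustment over 21789 rows, threshold 0.05). The share of all rows that passed was 0% in each of the 8. The p-values measure the spread between dams of these groups. At an unadjusted p under 0.05, 2 of the 7 genes stood out in KO 0.50, against 1.84% of all rows, and 1 in KO 0.75, against 2.9%. There was 1 in WT 0.75, against 10.2%, and 1 in WT 0.85, against 2.15%. None of the 7 did so in Q-tg 0.75, Q-tg 0.85, R-tg 0.75 or R-tg 0.85, where 2.35%, 3.86%, 5.31% and 4.86% of rows did. All comparisons within a genotype share their dose 0 arrays. In these pooled tissue samples, fewer cells of a type and less RNA per cell cannot be told apart.

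For the receptor, its partner and its repressor no comparison passed at an unadjusted p under 0.05 either. Over the 8 comparisons, the Ahr difference ran from -0.08 to 0.09 log2 units (SE 0.06), and the outermost bounds of its 95% intervals were -0.20 and 0.21. The -0.08 was that of KO 0.75, and it was 0.03 without the arrays against their label and -0.02 without KO 0.00 replicate 2. The Arnt difference ran from -0.08 to 0.09 (SE 0.05), with bounds of -0.17 and 0.18. The Ahrr difference ran from -0.11 to 0.13 (SE 0.08), with bounds of -0.27 and 0.30.

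Cyp1a2 gave the lowest p of all rows in KO 0.75, on a signal that stayed within the background. On the 5 arrays of KO 0.00 it read 5.32, 4.93, 5.24, 5.23 and 5.24. On those of KO 0.50 it read 5.44, 5.64, 5.52, 5.31 and 5.46, and on those of KO 0.75 it read 5.65, 5.55, 5.65, 5.49 and 5.68. Every KO 0.75 array was above every KO 0.00 array, while the lowest KO 0.50 array fell just below the highest KO 0.00 array. The difference was 0.41 log2 units in KO 0.75 (SE 0.09, interval 0.23 to 0.59, unadjusted p 2.27e-05, adjusted p 0.494, limma). In KO 0.50 it was 0.28 (SE 0.09, interval 0.10 to 0.46, unadjusted p 0.00243, adjusted p 1, limma).

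KO and control groups did not overlap in 0.698% of all rows at 0.75 and in 0.239% at 0.50, and 1 of the 7 genes did so at each dose (Cyp1a2 at 0.75, Cyp1b1 at 0.50). Without the arrays whose Pon1 signal went against the label, which leaves 3 arrays of KO 0.00 and 2 of KO 0.75, the Cyp1a2 difference in KO 0.75 was 0.36 (SE 0.13, adjusted p 1, limma), and that in KO 0.50 was 0.24. Without KO 0.00 replicate 2, which read 4.93, it was 0.34. With the lower quartile of each array as covariate it was 0.41. Of the 7 hepatocyte markers measured, 1 was above background, and the list's mean level was 5.88 to 6.13 in KO 0.75 and 5.93 to 6.22 in KO 0.00. In the other genotypes the Cyp1a2 differences at 0.75 and 0.85 were -0.16 and -0.14 in Q-tg, 0.11 and 0.05 in R-tg, and -0.15 and -0.06 in WT (SE 0.09 each).

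Cyp1b1 had lower means in both KO dose groups than in KO 0.00, above background and past no adjusted threshold. It read 7.51, 7.39, 7.29, 7.39 and 7.30 in KO 0.00, then 7.09, 7.23, 7.25, 7.27 and 7.11 in KO 0.50, and 7.23, 7.20, 7.16, 7.21 and 7.45 in KO 0.75. The KO 0.50 arrays were all below the KO 0.00 arrays, and in KO 0.75 replicate 5 alone overlapped them. The difference was -0.18 in KO 0.50 (SE 0.06, interval -0.31 to -0.06, unadjusted p 0.00488, adjusted p 1, limma) and -0.13 in KO 0.75 (SE 0.06). Without the arrays that went against their label these were -0.13 and -0.15. Over the 8 comparisons it ran from -0.18 to 0.06.

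Markers of the vessel wall, where Cyp1b1 is known to be expressed, had lower values in KO 0.75 too. All 10 endothelial markers and all 7 mural markers were below 0 there, with median differences of -0.10 and -0.08, while the median of all rows was -0.02 and 37% of rows were above 0. The mean endothelial level was 8.74 to 8.81 in KO 0.75 and 8.80 to 8.91 in KO 0.00, and the mean mural level was 8.16 to 8.32 and 8.27 to 8.42. All 8 meningeal markers were also below 0 (median -0.07). In KO 0.50, where the Cyp1b1 difference was wider, the endothelial and mural medians were -0.04 and 0.00, with 2 of 10 and 3 of 7 markers above 0. None of these markers passed the adjusted test in any comparison, and their part in the Cyp1b1 values was not tested. The marker values include the arrays against their Pon1 label (2 in KO 0.00 and 3 in KO 0.75) and were not taken without them.

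Cyp1a1 read lowest in WT 0.75. In order of size it read 5.55, 5.57, 5.69, 5.73 and 5.76 in WT 0.75, against 5.74, 5.85, 5.86, 5.87 and 5.88 in WT 0.00. The groups overlapped through the lowest WT 0.00 array, and the difference was -0.18 (SE 0.09, unadjusted p 0.0456, adjusted p 0.489, limma). Dim rows as a whole moved with it: the median olfactory receptor row differed by -0.07, and the lower quartile of the arrays was 6.28 ± 0.06 in WT 0.75 and 6.36 ± 0.05 in WT 0.00 (SD, n = 5 each). With that quartile as covariate the Cyp1a1 difference was -0.09 (adjusted p 0.965, limma). All 7 hepatocyte markers, of which 1 was above background, were below 0 here too (median -0.14). Their mean level was 6.01 ± 0.08 in WT 0.75 and 6.20 ± 0.25 in WT 0.00 (SD, n = 5 each). It ranged from 5.93 to 6.10 in WT 0.75 and from 6.01 to 6.63 in WT 0.00. Their part was not tested. Over the 8 comparisons the Cyp1a1 difference ran from -0.18 to 0.09.

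Tiparp read 8.30, 8.38, 8.51, 8.55 and 8.61 in WT 0.85, against 8.52, 8.57, 8.58, 8.58 and 8.67 in WT 0.00, in order of size. The groups overlapped, and the difference was -0.11 (SE 0.06, unadjusted p 0.0446, adjusted p 1, limma). It was -0.07 without WT 0.85 replicate 5. In WT 0.75 the Tiparp arrays read 8.51, 8.65, 8.65, 8.65 and 8.77, so the 3 WT doses had no common direction. Over the 8 comparisons the difference ran from -0.11 to 0.07.

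**Figure D3:**
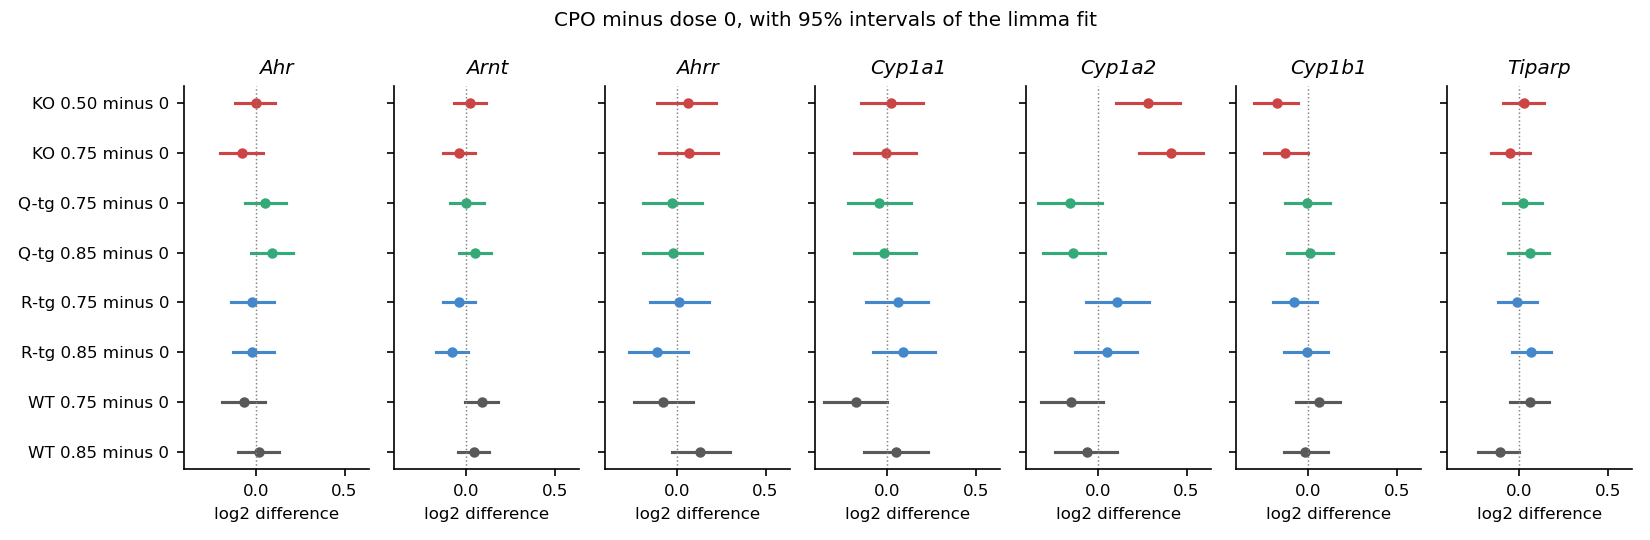
Log2 difference of each CPO dose from dose 0 within a labelled genotype, for the 7 genes. Points are differences, lines are 95% intervals of the limma fit before adjustment, and the dotted line marks 0. Cyp1a2 lies right of 0 in both KO rows (0.28 and 0.41), and no gene passed the adjusted threshold.

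Groups that do not overlap were also counted in the other dose comparisons. None of the 7 genes separated in Q-tg 0.75, Q-tg 0.85, R-tg 0.75, R-tg 0.85, WT 0.75 or WT 0.85, where 0.909%, 1.45%, 0.688%, 0.252%, 2.3% and 0.298% of all rows did. As a group the 7 genes showed no common sign. In KO 0.50, 5 were above 0 (median 0.02, all rows 0.00), and in KO 0.75, 2 were (median -0.04, all rows -0.02). In WT 0.75, 3 of 7 were above 0 (median -0.07, all rows 0.01).

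The design also asked for a response shared by the genotypes. Averaged over 4 genotypes at 0.75, the Cyp1a2 difference was 0.05 (SE 0.04, interval -0.04 to 0.14) and that of Cyp1a1 was -0.04 (SE 0.04, interval -0.13 to 0.04). At 0.85, averaged over Q-tg, R-tg and WT, they were -0.05 (SE 0.05) and 0.04 (SE 0.05). None of the 7 genes passed in either average, nor at an unadjusted p under 0.05, where 4.08% and 1.67% of rows did. The share of rows passing the adjusted test was 0 in both.

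Between genotypes at dose 0, Cyp1a2 read 4.93 to 5.32 in KO and 5.37 to 5.50 in WT with no overlap, a difference of -0.23 (SE 0.09, interval -0.41 to -0.05, unadjusted p 0.0116, adjusted p 0.999, limma). Without the arrays against their label the difference was -0.17. It uses the same KO 0.00 arrays as the dose comparisons. This was 1 of 7 genes both at an unadjusted p under 0.05 and without overlap, against 3.25% and 0.633% of all rows. None of the 7 genes did either in Q-tg minus WT (1.66% and 0.734% of rows) or R-tg minus WT (3.93% and 0.587%). The adjusted share was 0 in all 3 comparisons.

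The response at 0.75 was then compared with that of WT. For Cyp1a2 the KO response exceeded the WT response by 0.56 log2 units (SE 0.12, interval 0.31 to 0.81, unadjusted p 4.15e-05, adjusted p 0.452, limma), the 2nd lowest p of all rows, and by 0.49 without the arrays against their label. The R-tg response exceeded the WT response by 0.26 (SE 0.12, adjusted p 0.377, limma), and the Q-tg response differed by -0.01 (SE 0.12, interval -0.26 to 0.24). For Cyp1b1 the KO response minus the WT response was -0.18 (SE 0.09, adjusted p 0.635, limma), and -0.21 without those arrays. These made 2 of 7 genes for KO, 0 for Q-tg and 1 for R-tg at an unadjusted p under 0.05, against 7.59%, 2.23% and 13% of all rows. By adjusted p none of the 7 passed, and of all rows 0, 0 and 0.00459% did. These differences share the WT arrays with one another and the KO arrays with the comparisons above.

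Whether the targets moved together from dam to dam was asked of the deviations from the labelled group means, over 60 arrays. None of the 21 pairs passed (permutation within groups, 100000 draws, adjusted over 21 pairs). For Cyp1a1 and Cyp1a2, the neighbouring pair, r was 0.22 and rho 0.22 (permutation p 0.077 and 0.116, adjusted p 0.201 and 0.384). It was 0.26 by r without the 2 arrays farthest from the median of Cyp1a1. Here and below, the 2 arrays left out are those farthest in the first-named gene. Outlying arrays of the other gene or measure stay in. For Cyp1a1 and Cyp1b1, r was -0.30 and rho -0.29 (permutation p 0.07 and 0.0492, adjusted p 0.201 and 0.384), and r was -0.21 without 2 arrays. For Cyp1a2 and Cyp1b1, r was 0.06 and rho 0.12 (permutation p 0.596 and 0.385, adjusted p 0.695 and 0.603), and r was 0.12 without 2 arrays. So the r values of these pairs had no common sign and ranged from -0.30 to 0.22. Each pair holds Cyp1a1 or Cyp1a2, whose signals stayed within the background. The pairs therefore cannot show whether RNA of the 3 Cyp1 genes moved together.

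Cyp1a2 and Tiparp gave r -0.27 and rho -0.24 (permutation p 0.0593 and 0.0917, adjusted p 0.201 and 0.384, and r -0.21 without 2 arrays). Ahrr and Cyp1a1, both at background, gave r 0.28 and rho 0.21 (permutation p 0.0486 and 0.15, adjusted p 0.201 and 0.384; r 0.20 without 2 arrays). With the lower quartile of the arrays regressed out as well, r for Ahrr and Cyp1a1 was -0.01, and for Cyp1a1 and Cyp1a2 it was 0.04. The widest value was that of the receptor and its partner: Ahr and Arnt gave r 0.43 and rho 0.35 (permutation p 0.00595 and 0.0168, adjusted p 0.125 and 0.352; r 0.33 without 2 arrays). With each array centred on its median it was 0.11. Ahr and Cyp1a2 gave r -0.35 and rho -0.16 (permutation p 0.05 and 0.301, adjusted p 0.201 and 0.527). Ahr and Tiparp gave r 0.31 and rho 0.21 (permutation p 0.032 and 0.148, adjusted p 0.201 and 0.384). Ahr gave r -0.09 with Cyp1a1, 0.11 with Cyp1b1 and -0.01 with Ahrr. Arnt and Cyp1a2 gave r -0.31 and rho -0.19 (permutation p 0.0684 and 0.223, adjusted p 0.201 and 0.469).

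Cyp1a1 and Ahrr followed the lower part of the signal distribution of their array, in which their own signals lay. Their median r with all rows not above background was 0.31 for Cyp1a1 and 0.27 for Ahrr. Each gene was set against 9 marker lists and 2 array measures, 77 relations in all. Of these 18 passed, 14 of them with marker lists. What share lists of other genes would reach was not examined. The 2 array measures were added after the data were seen. Cyp1a1 correlated with the lower quartile of the array at r 0.59 and rho 0.55 (permutation p 8e-05 and 0.00019, adjusted p 0.00539 and 0.00481; r 0.58 without 2 arrays). With the mean of the olfactory receptor rows r was 0.53 and rho 0.49 (permutation p 0.00051 and 0.00114, adjusted p 0.00654 and 0.0108; r 0.50 without 2 arrays), and with the lower quartile regressed out r was -0.21 (adjusted p 0.404). Ahrr correlated with the same measures at r 0.48 and 0.50 and rho 0.49 and 0.51 (permutation p from 0.00025 to 0.00071, adjusted p from 0.00481 to 0.00708; r 0.43 and 0.44 without 2 arrays), and with the quartile regressed out r with the olfactory receptor mean was 0.13 (adjusted p 0.666). Cyp1a2 gave r 0.33 and 0.32 and rho 0.29 with both, which did not pass (permutation p from 0.0232 to 0.0477, adjusted p from 0.0778 to 0.119; r 0.26 and 0.27 without 2 arrays).

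Both genes also correlated with marker lists. Over all rows the 5th and 95th percentiles of r were -0.47 and 0.51 for Cyp1a1 and -0.43 and 0.45 for Ahrr. Cyp1a1 gave r 0.46 and rho 0.47 with the hepatocyte list (permutation p 0.00067 and 0.00109, adjusted p 0.00683 and 0.0108; r 0.44 without 2 arrays), and Ahrr gave r 0.36 and rho 0.43 (permutation p 0.00882 and 0.00208, adjusted p 0.038 and 0.0155; r 0.29 without 2 arrays). Of this list Alb, Afp, Fgb, Ahsg, Cyp2e1 and Cps1 were not above background. With the lower quartile regressed out these became -0.06 and -0.08. Ahrr with the erythroid list gave r 0.38 and rho 0.42 (permutation p 0.00889 and 0.00301, adjusted p 0.038 and 0.0178; r 0.39 without 2 arrays), and 0.09 with the quartile regressed out. Cyp1a1 with the endothelial list gave r -0.42 and rho -0.40 (permutation p 0.00366 and 0.00428, adjusted p 0.0217 and 0.0206; r -0.44 without 2 arrays), and -0.25 with the quartile regressed out.

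The bright members correlated with cell markers, and their r is to be read against that with all rows. The 95th percentile of r over all rows was 0.49 for Ahr, 0.56 for Arnt, 0.32 for Cyp1b1 and 0.40 for Tiparp. A list mean is not a single row, and lists of other genes were not compared. Tiparp gave r 0.52 and rho 0.52 with the neural progenitor and radial glia list (permutation p 0.00014 and 7e-05, adjusted p 0.00539 and 0.00481; r 0.56 without 2 arrays), and 0.45 with the quartile regressed out and 0.50 with centred arrays. Arnt gave r 0.57 and rho 0.51 with the endothelial list (permutation p 0.00026 and 0.00025, adjusted p 0.00635 and 0.00481; r 0.45 without 2 arrays). Ahr gave r 0.52 and rho 0.41 with the progenitor list (permutation p 0.00033 and 0.00385, adjusted p 0.00635 and 0.02; r 0.39 without 2 arrays). Cyp1b1 gave r 0.33 and rho 0.41 with the meningeal list (permutation p 0.00205 and 0.00221, adjusted p 0.0158 and 0.0155; r 0.32 without 2 arrays). This list was not particular to it: r was 0.36 with the mural, 0.35 with the neuron and 0.33 with the endothelial list. Those did not pass by r (permutation, adjusted p 0.0747, 0.0778 and 0.0613), while the endothelial rho of 0.41 had an adjusted p of 0.0168. Centring each array on its median took the call from all 8 relations of Ahr and Arnt and from that of Cyp1b1 with the meningeal list. With centring, r was 0.23 for Arnt with the endothelial list, 0.15 for Ahr with the progenitor list and 0.26 for Cyp1b1 with the meningeal list. The other 6 relations of Ahr and Arnt, with progenitor, mural, meningeal or microglial lists, had r of 0.35 to 0.43 (adjusted p 0.0154 to 0.0219), rho of 0.35 to 0.45 (adjusted p 0.0108 to 0.0532), and r of 0.31 to 0.38 without 2 arrays.

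**Figure D4:**
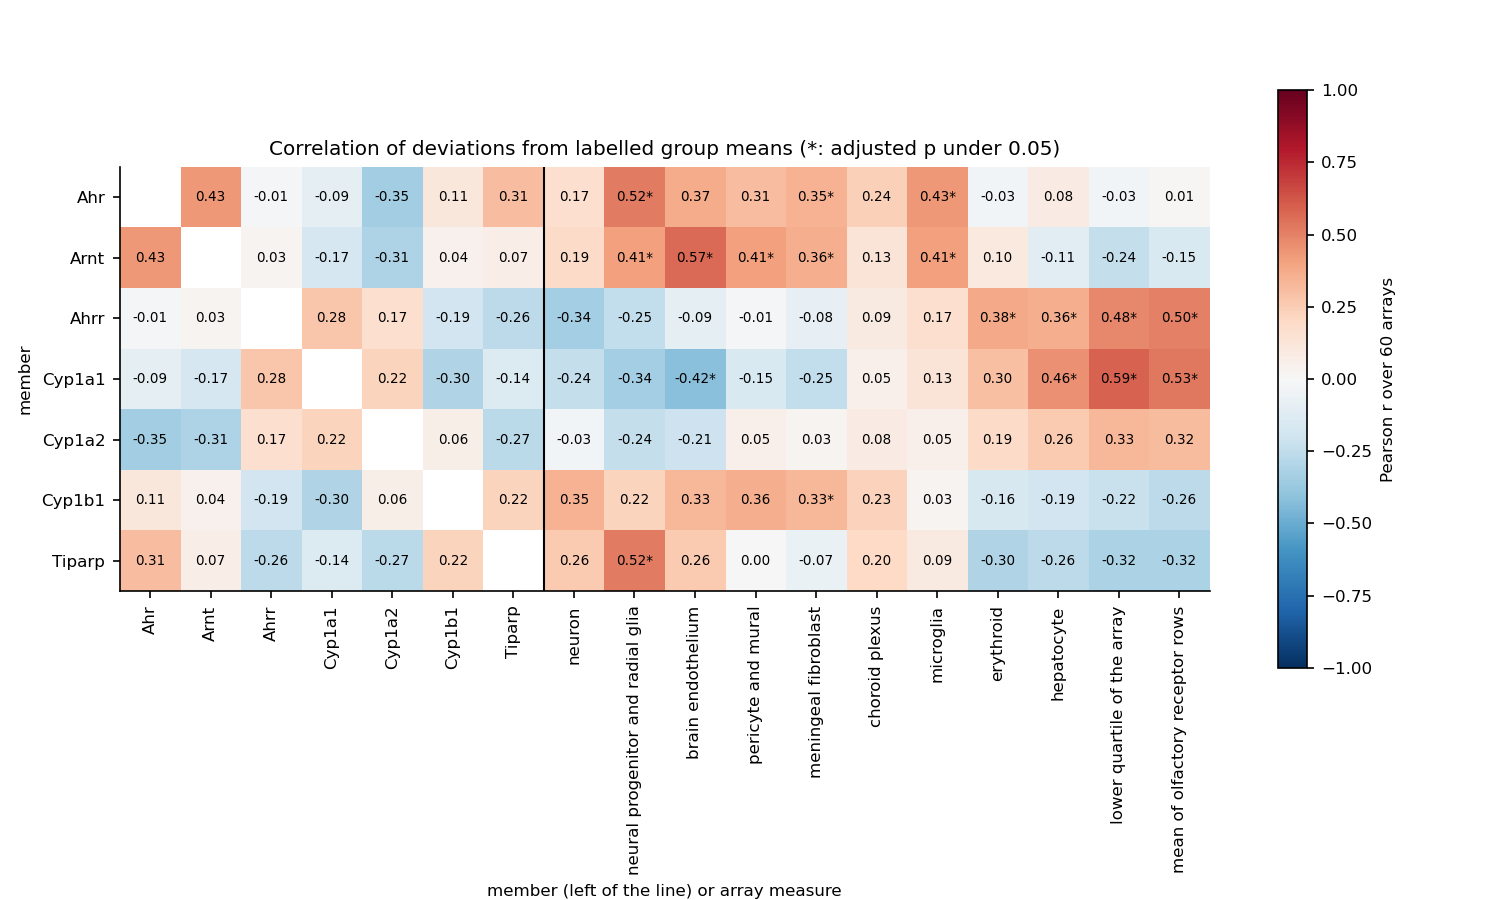
Pearson r over 60 arrays between deviations from the labelled group means, for each of the 7 genes (rows) with the other members (left of the black line) and with marker lists and array measures (right of it). An asterisk marks an adjusted p under 0.05. No member pair has an asterisk, and the row of Cyp1a2 has none.

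**Figure D5:**
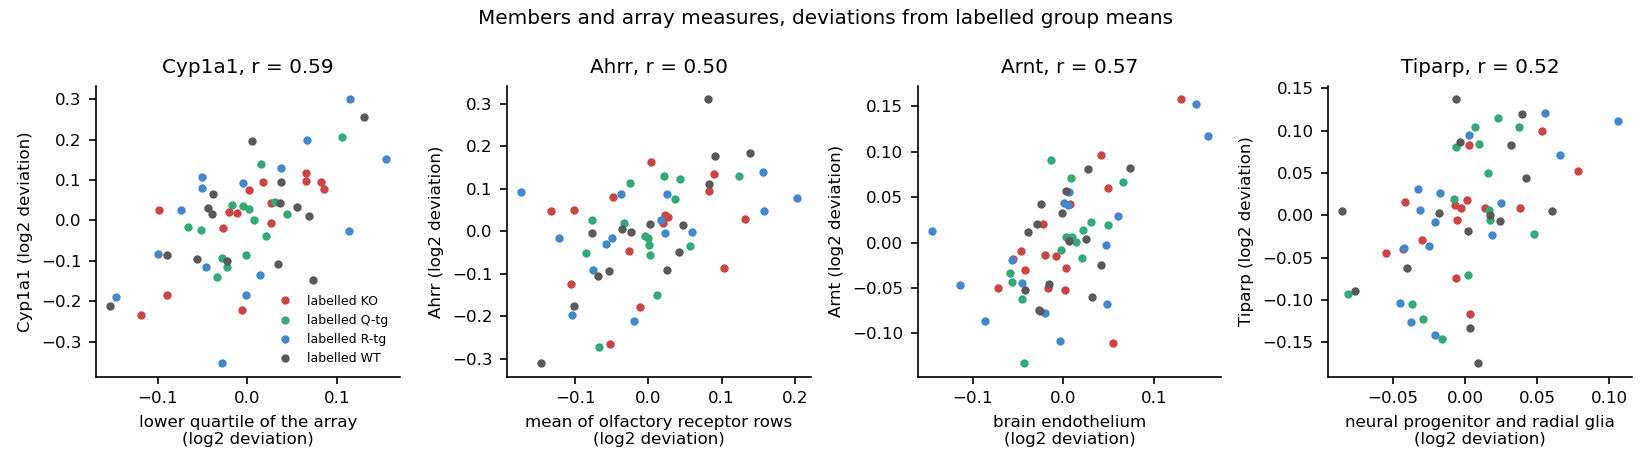
A selection of the relations that passed, as log2 deviations from the labelled group means, 1 point per array and coloured by labelled genotype. From left to right are Cyp1a1 with the lower quartile of the array (r 0.59), Ahrr with the mean of the olfactory receptor rows (r 0.50), Arnt with the endothelial markers (r 0.57) and Tiparp with the progenitor markers (r 0.52).

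The rows most like each gene over the 60 arrays, by r of the deviations, are a description in which every point shares an array. For Ahr they were Gabbr1 (0.73), Cnnm2 (0.72) and Ehd3 (0.71), and for Arnt Zcchc14 (0.83), Pde4dip (0.81) and Ablim1 (0.80). For Tiparp they were Togaram1 (0.68), Zfp128 (0.66) and Arhgap29 (0.65), and for Cyp1b1 Ahcyl1 (0.58), Ephx1 (0.57) and Adam22 (0.57). For Ahrr they were Unc13d (0.65), Procr (0.64) and Asgr2 (0.63), for Cyp1a1 Fbxo40 (0.69), Dspp (0.69) and Guca2b (0.68), and for Cyp1a2 AA986860 (0.58), Vwa3b (0.57) and Pate11 (0.57). The members were left out before the ranking, as were rows with symbols of the Gm, LOC, Rik or Mir form. The ranking therefore cannot show whether the members resemble one another. Of the 100 most alike rows, 99 for Ahr, 100 for Arnt, 98 for Cyp1b1 and 100 for Tiparp were above the olfactory receptor percentile. For Ahrr 47 were, for Cyp1a1 63 and for Cyp1a2 49. Of all rows with 1 symbol 71.6% are, a share that includes the rows left out of the ranking. The median r with the olfactory receptor rows was 0.27 for Ahrr, 0.31 for Cyp1a1 and 0.18 for Cyp1a2, and between -0.18 and 0.00 for the other 4.

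Around the members, the counts above background are to be read against the 71.6% of all rows that are. Of 18 measured genes of the AHR complex and its cofactors, 17 were above background, and of 12 bHLH-PAS relatives 11 were. Of 13 measured genes of the AHR battery outside the Cyp1 family 5 were, and Nqo1, Aldh3a1, Xdh, Fmo2, Serpinb2, Ido1, Il1b and Tdo2 were not. Of 19 other xenobiotic P450 genes and partners 12 were, and of 12 relatives of Tiparp in the PARP family 9 were. None of these genes passed the adjusted test in any of the 16 comparisons.

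In KO 0.75 minus KO 0.00 the list medians were -0.02 (complex), -0.05 (battery), -0.01 (relatives), -0.05 (other P450 genes) and -0.03 (PARP family), and the median of all rows was -0.02. The widest values of the complex were 0.13 for Ptges3 (SE 0.05), the p23 co-chaperone, and -0.11 for Src (SE 0.04), a kinase released from the AHR complex. In the battery they were -0.15 for Il1b (SE 0.10) and 0.13 for Ido1 (SE 0.09), and among relatives 0.09 for Arntl2 (SE 0.07) and -0.08 for Hif3a (SE 0.09). Cyp2e1 gave -0.12 (SE 0.10), the nuclear receptor Rxra -0.11 (SE 0.06), Zc3hav1 -0.11 (SE 0.07) and Parp3 0.09 (SE 0.07). All had an adjusted p of 0.999 (limma).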

How the data were processed

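The authors made the deposited log2 values with RMA (oligo 1.22.0 under R 2.15.1, per the submitters' processing notes) from 60 Mouse Gene 1.0 ST arrays, and they were used as deposited. RMA equalises probe distributions, so a shift shared by most genes would not be seen. The platform annotation gave 1 symbol for 21789 of 28858 rows. limma 3.58.1 (R 4.3.3) was fitted with 12 labelled groups over 60 arrays, and 16 comparisons were taken, with Benjamini-Hochberg adjustment over 21789 rows, a threshold of 0.05 and 95% intervals, and the script was tested on simulated data. The background was the 95th percentile of 1035 olfactory receptor rows. Correlations used deviations from group means and 100000 permutations within groups (scipy 1.17.1, numpy 2.4.6), and the smallest p these can give is 1e-05. The lower quartile and olfactory receptor measures were added after seeing the data. Members and lists were chosen with earlier results of these data known. Named genes were all members, the 2 widest measured genes of a pathway list in KO 0.75, the 3 non-member rows most like each member, and Pon1. List genes not above background were named after their values were seen. Alternatives were array weights, a trended and robust prior, only bright rows, all rows, centred arrays, a replicate block, the groups of the comparison alone, the lower quartile as covariate, and leaving out arrays. The number of arrays limits the precision. Same-numbered arrays did not pair: their deviations had a mean r of -0.009 over 330 pairs, against 0.003 for others.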

Additional observations from a re-analysis of the deposited data

Results flagged for a closer look

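In 6 of 84 groups (7 genes in 12 groups) 1 array stood far from the other 4 by Dixon's criterion, and chance gives about 1 in 20. Cyp1a2 in KO 0.00 replicate 2 read 4.93, and the others read 5.23 to 5.32. Cyp1b1 in KO 0.75 replicate 5 read 7.45, and the others read 7.16 to 7.23. Cyp1a1 in KO 0.75 replicate 1 read 5.60, and the others read 5.85 to 5.93. On these 3 arrays the Pon1 signal also went against the KO label, and whether the 2 facts are linked was not tested. Arnt in KO 0.50 replicate 4 read 9.38, and the others read 9.18 to 9.20. Cyp1a1 read 5.85 in Q-tg 0.00 replicate 5, where the others read 5.97 to 6.01, and 5.74 in WT 0.00 replicate 3, where the others read 5.85 to 5.88.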

How the results depend on the processing

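Over 960 values of the 7 genes under other settings and 1680 with 1 array left out, none passed the adjusted test, and 11 and 1 moved by 1 SE or more. The replicate block changed no call, and with it the Cyp1a2 difference in KO 0.75 was 0.41 (adjusted p 0.619, limma). Over its settings that value ran from 0.36 to 0.43 (adjusted p 0.199 to 1), and from 0.34 to 0.44 with 1 array left out. The filter on dim rows leaves out Ahrr, Cyp1a1 and Cyp1a2. With array weights 39 rows passed in WT 0.75, and without the arrays against their Pon1 label 29 passed in KO minus WT, none of them a member, against 0 in the fit of all arrays. Of member pairs, 5 passed with no group means removed, against 0. They were Ahr with Arnt (r 0.39) and Cyp1a2 (-0.34), Arnt with Cyp1a2 (-0.35), and Ahrr with Cyp1a1 (0.38) and Tiparp (-0.38). Of the 77 relations 33 passed with no group means removed, against 18, and 11 to 21 with 1 array left out (11 without R-tg 0.85 replicate 5). With the lower quartile regressed out 7 of 70 passed. The relations with the quartile itself, 2 of the 18 among them, have no value there. With the quartile regressed out, r changed sign to -0.08 for Ahrr and to -0.06 for Cyp1a1 with the hepatocyte list, and to -0.21 for Cyp1a1 with the olfactory receptor mean. With centred arrays 9 of the 18 relations still passed, and Arnt with the progenitor list changed sign to -0.05. The cause was not tested. No relabelling is stated by the deposited readme and each gene has 1 row, so those 2 alternatives were not run.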

Other observations

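Over the 12 group means, as a description, the widest of the 21 pairs were Ahrr and Tiparp (r -0.74) and Ahrr and Cyp1a1 (0.68). Next came Cyp1a2 and Cyp1b1 (-0.64) and Arnt and Cyp1a1 (-0.63), and Cyp1a1 and Cyp1a2 gave 0.31. Each of these pairs holds a gene whose signal stayed within the background. Cyp1b1 averaged 7.19 in KO 0.50 and 7.37 in KO 0.00, its lowest and highest groups, and Cyp1a2 averaged 5.60 in KO 0.75 and 5.19 in KO 0.00, its highest and lowest.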
